A study of Drosophila melanogaster with 18 samples.

Results

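In S2R+ cells, an established Drosophila line grown from embryos and related to blood cells, 29 of 17559 annotated gene IDs were barely expressed in the control and reached a mean of at least 1 CPM after knockdown of Spenito (gene symbol nito). CPM is a gene's read count in each 1000000 counts of its library. The 29 genes were chosen from these values: a control mean under 0.5 CPM, a Nito mean of at least 1 CPM, and a Nito mean of at least 3 times the control mean, leaving out brp, Gad1 and long non-coding RNA genes. In all, 8061 genes had a control mean under 0.5 CPM with the same genes left out. Polyadenylated RNA was sequenced from cells given 3 treatments with 10 µg of double-stranded RNA during a span of 6 days. There were 3 libraries in each of 6 groups: Nito, Ime4_dMettl14 (double-stranded RNA against both Ime4 and dMettl14), Fl2d, Vir, CG7358, and the control, which received double-stranded RNA against the bacterial gene LacZ. All groups were of the same cell line and the same labelled range of passages. Nothing in the labels says that replicates were grown as separate cultures, so the spread behind each p-value is that between libraries and may be technical only.

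N6-methyladenosine (m6A) is a methyl mark on adenosines inside messenger RNA, placed by a complex of several proteins in the nucleus. Ime4 and dMettl14 form its catalytic core, and Fl(2)d, Virilizer and CG7358 (also called Flacc) are further subunits. Spenito is an RNA-binding subunit of the same complex, and is known in flies for a role in Sex lethal splicing and in Wingless signalling.

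The targeted gene was lower in the Nito libraries than in the control libraries. The nito transcript had 42.7, 41.1 and 40.4 CPM in the Nito libraries, against 166, 168 and 169 CPM in the control libraries. Its Nito mean was 24.7% of the control mean (log2 fold change -2.01 ± 0.05 SE). Totals were 15743484 to 18100792 counts per library. At least 1 read was found for 11156, 11161 and 11312 genes in the 3 Nito libraries, and for 10366 to 10847 genes in the other 15 libraries.

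The genes were low, but not silent, in the control cells. Of the 87 control values (29 genes in 3 libraries) 1 was 0, the value of the pseudogene CR43972 in control replicate 2. The 29 genes had 11 to 72 reads per Nito library and 0 to 11 reads per control library, and sums over 3 libraries of 54 to 180 reads in Nito and 5 to 24 reads in the control. They were low-level genes that were higher in Nito, and not genes at 0 in the control. Their mean CPM had a range of 1.04 to 3.48 in Nito (median 1.23), against 0.103 to 0.477 in the control (median 0.344), and the ratio of the means had a range of 3.01 to 10.9 (median 3.87). In Nito, 22 of the 29 had a mean under 1.5 CPM and 2 had at least 2 CPM. For each of the 29 the exact 95% Poisson interval of the summed Nito count lay above that of the summed control count, which covers counting error only. These values chose the genes, so they describe the set and carry no test.

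**Figure D1:**
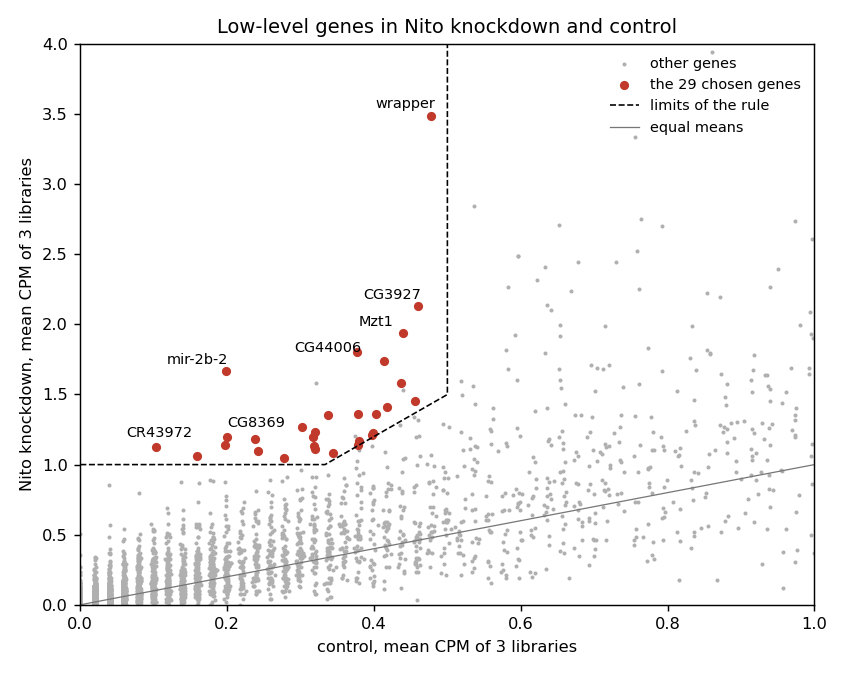
Mean CPM of 3 Nito libraries (y axis) against mean CPM of 3 control libraries (x axis) for genes with control means up to 1 CPM. Red points are the 29 chosen genes, the dashed line is the limit of the rule, and the 4 grey genes that also meet the limits were left out by name. Most of the 29 sit just over the line at 1 CPM, and wrapper stands highest at 3.48 CPM.

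The thresholds cut through a continuous range. The genes just inside the Nito threshold were CG1273, Vha36-3 and CG31551 at 1.04, 1.06 and 1.08 CPM in Nito, and just outside it were per, CG2444 and CG8180 at 0.962, 0.912 and 0.894 CPM in Nito. Just inside the control threshold were wrapper, CG3927 and fan at 0.477, 0.460 and 0.455 CPM in control, and just outside it were CG15482, CG3679 and CG32026 at 0.518, 0.536 and 0.580 CPM in control. By ratio, FBgn0085364, CG44004 and Cpr64Ac were just inside at 3.01, 3.04 and 3.07, and CG2887, CG44245 and CG10663 were just outside at 2.95, 2.94 and 2.91.

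By annotation (positions are on the BDGP6 build), 26 of the 29 are protein-coding, 1 is a microRNA hairpin (mir-2b-2), 1 is a pseudogene (CR43972) and 1 ID, FBgn0085364, has no symbol or position in the annotation used. A role is given here for 11 of them, and 17 others besides the pseudogene are given by name only. The 11 are grouped here by known tissue, function or kind of RNA: nervous system (wrapper, bib, Ir68a), germ line (nanos, fan, Mzt1), muscle (Scgalpha), cuticle (Cpr64Ac), phagocytosis by blood cells (NimC3), proton transport (Vha36-3) and microRNAs (mir-2b-2).

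Of the nervous system genes, wrapper (FBgn0025878, chromosome 2R, 22379637 to 22382675, plus strand) encodes an immunoglobulin-superfamily surface protein of midline glia that enwrap axons. It had 56, 72 and 52 reads in the Nito libraries, against 5, 11 and 8 reads in the control libraries. Its mean level was 3.48 ± 0.619 CPM in Nito and 0.477 ± 0.172 CPM in the control (SD, n = 3 each), the highest Nito level of the 29. All Nito libraries were far above all other libraries for this gene, which was chosen by its Nito mean. The big brain gene, bib (FBgn0000180, 2L, 9984645 to 9995538, plus strand), a neurogenic gene whose protein belongs to the aquaporin family, had 16, 18 and 23 reads in Nito, against 3, 3 and 6 reads in the control. Its levels were 1.10 ± 0.152 CPM in Nito and 0.242 ± 0.115 CPM in the control (SD, n = 3 each). Ir68a (FBgn0036150, 3L, 11232972 to 11236218, minus strand), an ionotropic receptor of humidity-sensing neurons, had 16, 21 and 22 reads in Nito, against 4, 7 and 5 reads in the control. For both bib and Ir68a the lowest Nito library held 16 reads and the highest control library 6 or 7. The groups did not overlap, which the rule makes likely, and the amounts were small.

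Among the germ-line genes, nanos (FBgn0002962, 3R, 19157238 to 19160202, plus strand), a translational repressor of the embryo's posterior and of germ cells, had 20, 18 and 26 reads in the Nito libraries, against 7, 4 and 5 reads in the control libraries. The testis gene fan (FBgn0028379, 3L, 8109132 to 8110043, plus strand), called farinelli and related to VAP membrane proteins, had 29, 17 and 29 reads in Nito, against 10, 8 and 5 reads in the control. Mzt1 (FBgn0261858, 3L, 2389265 to 2389650, plus strand), a small protein of gamma-tubulin complexes known in flies from the testis, had 36, 25 and 39 reads in Nito, against 4, 9 and 9 reads in the control. Nito replicate 2 was the lowest Nito library for all of these 3 genes. It still held more reads than each control library, which the rule makes likely.

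Scgalpha (FBgn0032013, 2L, 8303429 to 8305376, plus strand), the alpha sarcoglycan of the dystrophin-associated complex of muscle, had 23, 16 and 22 reads in Nito, against 4, 5 and 3 reads in the control. The cuticle protein gene Cpr64Ac (FBgn0035512, 3L, 4211964 to 4212915, minus strand) had 23, 19 and 18 reads in Nito, against 7, 5 and 7 reads in the control. NimC3 (FBgn0001967, 2L, 14019357 to 14020208, minus strand), a member of the Nimrod family, which includes phagocytic receptors of blood cells, had 24, 26 and 23 reads in Nito, against 6, 8 and 7 reads in the control. The Nito libraries were close to each other for NimC3, and the other 15 libraries had 2 to 12 reads. Vha36-3 (FBgn0040377, X, 2579091 to 2580560, minus strand), a relative of the D subunit of the vacuolar proton pump, had 18, 17 and 20 reads in Nito, against 3, 3 and 2 reads in the control.

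The genes without a role given here had levels in the same range. CG3927 (FBgn0034739, 2R, 22594677 to 22596348, plus strand) had 37, 42 and 31 reads in Nito, against 10, 5 and 8 reads in the control. CG44006 (FBgn0264748, 3L, 18068728 to 18070150, minus strand) had 22, 32 and 40 reads in Nito, against 3, 10 and 6 reads in the control. CG11617 (FBgn0031232, 2L, 204743 to 207297, minus strand) had 26, 32 and 32 reads in Nito, against 10, 8 and 3 reads in the control. In all 3 the lowest Nito library held more than the highest control library. CR43972 (FBgn0264703, 3L, 15100054 to 15102040, minus strand) had the largest ratio of means, 10.9, which rests on 5 control reads in all: 21, 16 and 21 reads in Nito, against 1, 0 and 4 reads in the control. CG8369 (FBgn0040532, 3R, 8822008 to 8822838, plus strand) had 21, 17 and 24 reads in Nito, against 3, 3 and 4 reads in the control. CG34434 varied most between Nito libraries relative to its mean, with 20, 11 and 31 reads, against 6, 6 and 4 reads in the control. The other 11 (CG3526, CG14839, CG10064, frm, CG11598, CG13877, CG44004, FBgn0085364, twy, CG5592, CG31551) and CG1273 had 11 to 30 reads in a Nito library.

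**Figure D2:**
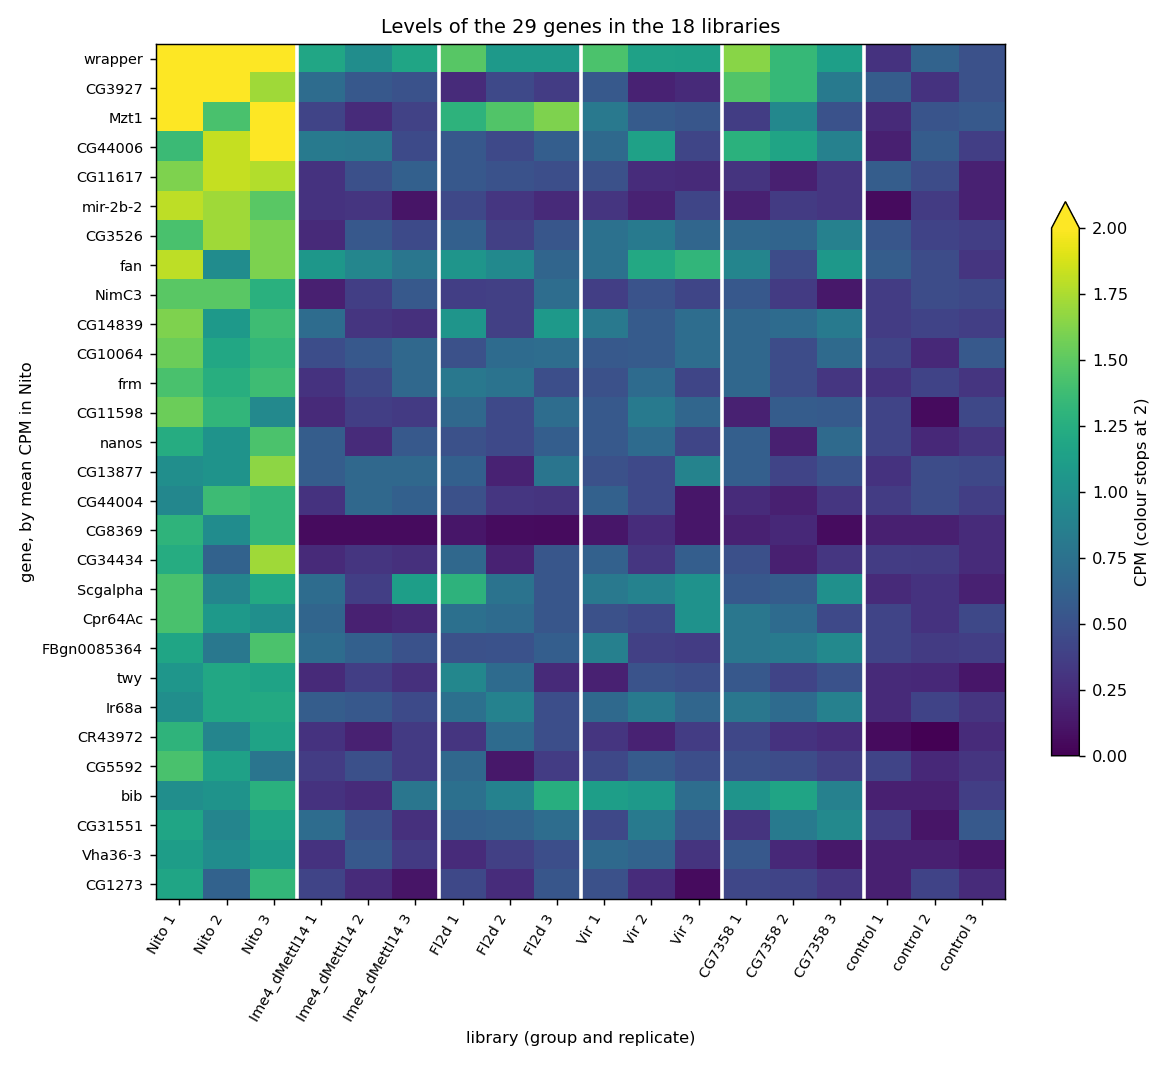
CPM of each of the 29 genes (rows, ordered by mean CPM in Nito) in each of the 18 libraries (columns, by group and replicate), with the colour scale ending at 2 CPM. The 3 Nito columns on the left are the brightest in most rows, the control columns on the right are dark, and the other knockdowns are mostly dark, with bright cells for wrapper, Mzt1 in Fl2d, CG3927 in CG7358 and bib.

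Per length, the genes stayed far under the typical expressed gene. The median over the protein-coding members was 0.972 CPM per kb of exon in Nito and 0.242 CPM per kb in the control, where the medians over all protein-coding genes tested were 20.4 CPM per kb in Nito and 20.9 CPM per kb in the control. On this scale Mzt1 was the highest of the protein-coding members at 5.02 CPM per kb in Nito, against 1.14 CPM per kb in the control, and CG1273 the lowest at 0.249 CPM per kb in Nito, against 0.0663 CPM per kb in the control. The median exon length was 1329.5 bases for the 26 protein-coding members, against 1822 bases for 973 protein-coding genes in the members' control range. These are levels of whole cultures, in which more cells with a transcript and more transcript per cell cannot be told apart.

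mir-2b-2 (FBgn0262449, 2L, 19570182 to 19570264, minus strand) is 1 of a cluster of mir-2 hairpins in an intron of spi, the gene of the epidermal growth factor receptor ligand Spitz. The mir-2 family is known in flies to repress pro-apoptotic genes. Mature microRNAs carry no poly(A) tail, so reads on the hairpin in these polyadenylated libraries do not measure the mature microRNA. mir-2b-2 had 29, 30 and 27 reads in the Nito libraries, against 1, 6 and 3 reads in the control libraries, and 2 to 7 reads in each library of the other 4 knockdowns. Its means were 1.67 ± 0.158 CPM in Nito and 0.198 ± 0.145 CPM in the control (SD, n = 3 each). No other library came near the Nito libraries, by whose mean the gene was chosen.

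The 2 hairpins beside it, which were named for their position and are not in the set, were tested in edgeR's quasi-likelihood fit of all 18 libraries. mir-2a-1 (FBgn0262377, 2L, 19569897 to 19569972), 210 bases from mir-2b-2, had 30, 37 and 59 reads in Nito, against 11, 14 and 7 reads in the control (log2 fold change 1.93 ± 0.29 SE, edgeR adjusted p = 8.47e-07). mir-2a-2 (FBgn0262460, 2L, 19569490 to 19569561) had 79, 80 and 91 reads in Nito, against 13, 20 and 18 reads in the control (2.26 ± 0.20 SE). Both rose and their groups did not overlap. The host gene spi was 563 ± 3.58 CPM in Nito and 397 ± 2.00 CPM in the control (SD, n = 3 each), 142% of the control (0.52 ± 0.03 SE). The rise of the host was smaller than that of the hairpins on the log2 scale, and the difference between them was not tested. The hairpins lie on the strand of spi, and the part of spi transcripts that keep the intron in the hairpin counts was not tested.

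**Figure D3:**
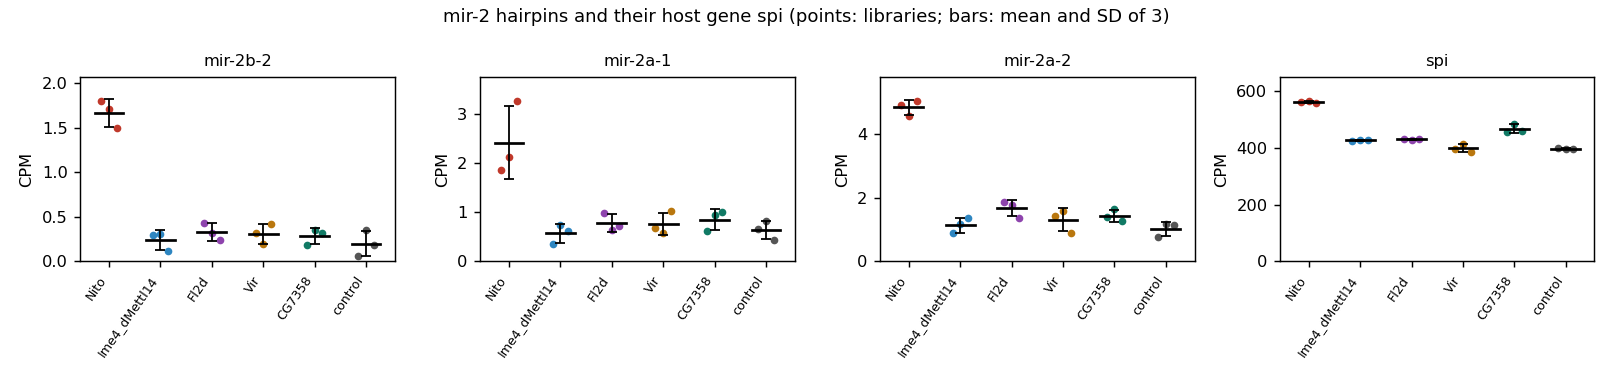
CPM of mir-2b-2, mir-2a-1, mir-2a-2 and their host gene spi in each library (points), with the mean and SD of 3 libraries per group. In Nito, on the left, mir-2b-2 stood at 1.67 CPM against 0.198 CPM in the control, and spi at 563 CPM against 397 CPM.

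Across the other 4 knockdowns the summed level of the 29 genes was lower than in Nito. The choice of genes by a high Nito mean makes this likely. Summed over the 29, the libraries had 38.1 to 42.6 CPM in Nito, 13.1 to 13.9 CPM in Ime4_dMettl14, 15.9 to 19.2 CPM in Fl2d, 16.04 to 17.6 CPM in Vir, 16.8 to 18.4 CPM in CG7358 and 9.40 to 10.0 CPM in the control. The medians over the 29 genes were 0.442 CPM in Ime4_dMettl14, 0.531 CPM in Fl2d, 0.559 CPM in Vir and 0.506 CPM in CG7358, against 0.344 CPM in the control. The 1183 other genes in the same control range had medians of 0.292 CPM in Nito and 0.215, 0.247, 0.243 and 0.226 CPM in these 4 knockdowns, against 0.222 CPM in the control. For none of the 29 did the mean of another knockdown reach the Nito mean. It came nearest for bib, at 93.5% of the Nito mean in CG7358, and for Scgalpha, at 76.4% in Vir. A member's highest other group was Fl2d for 11 genes, Vir for 9, CG7358 for 7 and Ime4_dMettl14 for 2. Ime4_dMettl14 was the lowest of the 4 for 18 genes. The 1183 other genes also had their lowest median of the 4 there, at 0.215 CPM. How often each group was highest or lowest over those genes was not counted, so these counts are not read as a trait of the 29.

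**Figure D4:**
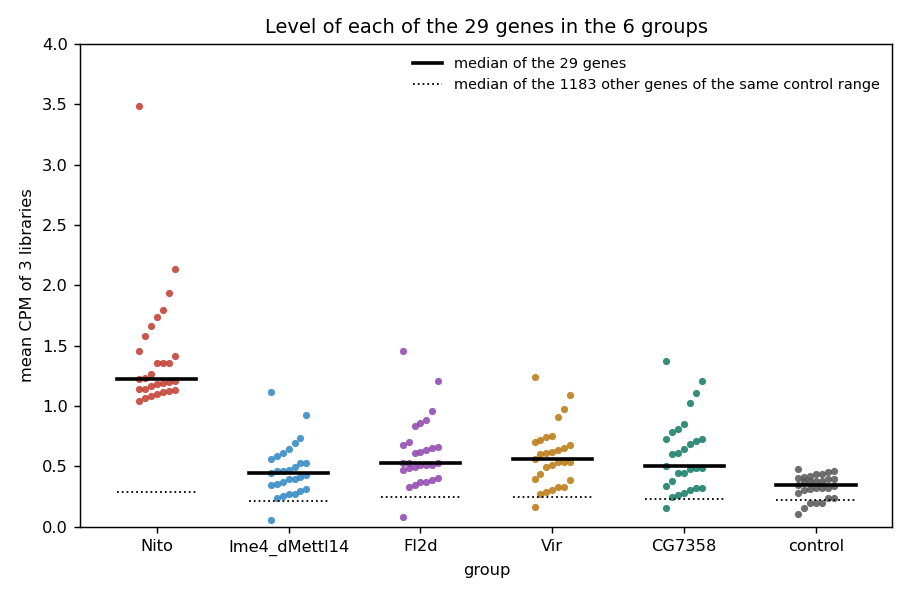
Mean CPM of each of the 29 genes (points) in the 6 groups, with the median over the 29 genes (solid line) and over the 1183 other genes of the same control range (dotted line). The solid line stands at 1.23 CPM in Nito, at 0.442 to 0.559 CPM in the other knockdowns and at 0.344 CPM in the control.

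The lowest Nito library was above the highest control library for all 29 genes, which the rule makes likely, and 30.4% of all genes tested and 33.4% of the 926 tested genes of like low average level had this. It was above all 15 other libraries for 21 genes, against 19.4% of all genes tested and 13.7% of those 926. Both counts rest on the values that chose the genes, and nothing is read from them. The 8 exceptions to the second were Mzt1, fan, CG34434, Scgalpha, Cpr64Ac, FBgn0085364, bib and CG31551. All 29 passed the filter on low counts, but 10 of them (CG11617, mir-2b-2, NimC3, CG8369, CG34434, twy, CR43972, CG5592, Vha36-3 and CG1273) passed only through their Nito libraries. The 19 others passed without Nito, and 18 passed on the 12 libraries of the other 4 knockdowns alone.

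A comparison among the other 4 knockdowns sets only their own group means against each other, while the filter and the estimate of spread come from all 18 libraries. In an F test of any difference among Ime4_dMettl14, Fl2d, Vir and CG7358 (edgeR's quasi-likelihood test, Benjamini-Hochberg adjustment over the 8146 genes tested), 3 of the 29 passed at an adjusted p under 0.05. The background was 42.6% of all genes tested and 11.9% of the 926 of like low level. With only these 4 groups in the fit, 18 members were tested and the same 3 passed. As 10 of the 29 were tested only because of their Nito libraries, the members' share is not read against the background. The 3 genes had different patterns. Mzt1 stood out in Fl2d, with 21, 23 and 27 reads, against 4 to 16 reads in each library of the other 3 knockdowns (edgeR adjusted p = 0.000147). CG3927 stood out in CG7358, with 24, 23 and 13 reads, against 3 to 12 reads in the others (edgeR adjusted p = 0.000286). bib was low in Ime4_dMettl14, with 5, 4 and 14 reads, against 12 to 21 reads in the others (edgeR adjusted p = 0.0226). The libraries of the 2 kinds were separate for Mzt1 and CG3927, and for bib they overlapped through Ime4_dMettl14 replicate 3. The result for bib was lost without Ime4_dMettl14 replicate 1 or 2 (edgeR adjusted p = 0.155 and 0.175), and with DESeq2 in place of edgeR (DESeq2 adjusted p = 0.0570).

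Against Ime4_dMettl14, the mean of Fl2d, Vir and CG7358 was higher for 25 of the 29 by sign, and 4 passed the test, all higher (edgeR's quasi-likelihood test, adjusted p under 0.05). The median log2 difference was 0.299 over the 29, against 0.156 over the 926 of like low level and -0.00283 over all genes tested. The share by sign over those genes was not counted, so nothing is read from the 25. The background of genes that passed as higher was 17.2% of all genes tested and 8.75% of the 926 of like low level, and the members' share is again not read against it. The differences were 1.26 ± 0.34 for Mzt1 (SE, edgeR adjusted p = 0.00478) and 1.17 ± 0.31 for bib (SE, edgeR adjusted p = 0.00395). CG14839 (0.84 ± 0.33 SE, edgeR adjusted p = 0.0468) had 6 to 18 reads in the libraries of Fl2d, Vir and CG7358, against 12, 5 and 5 in Ime4_dMettl14. Cpr64Ac (0.93 ± 0.37 SE, edgeR adjusted p = 0.0498) had 7 to 17 reads in those libraries, against 11, 3 and 4 in Ime4_dMettl14. For CG14839, Cpr64Ac and bib 1 Ime4_dMettl14 library lay within the range of the others, and for Mzt1 only CG7358 replicate 1 came down to it. The number that passed was 1 without Ime4_dMettl14 replicate 2, and it was 2 without any of control replicates 1, 2 and 3, Ime4_dMettl14 replicate 3, Fl2d replicate 1, Vir replicate 3, Nito replicates 1 and 3, or CG7358 replicate 2. Without Ime4_dMettl14 replicate 2 the value of bib had an edgeR adjusted p of 0.0541. Of the 18 libraries, CG14839 was lost without any of 14 and Cpr64Ac without any of 13. Neither passed with DESeq2 (DESeq2 adjusted p = 0.108 and 0.106). Without Ime4_dMettl14 replicate 1 the difference was 1.38 for CG14839 and 1.68 for Cpr64Ac, and without replicate 3 it was 1.88 for bib.

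**Figure D5:**
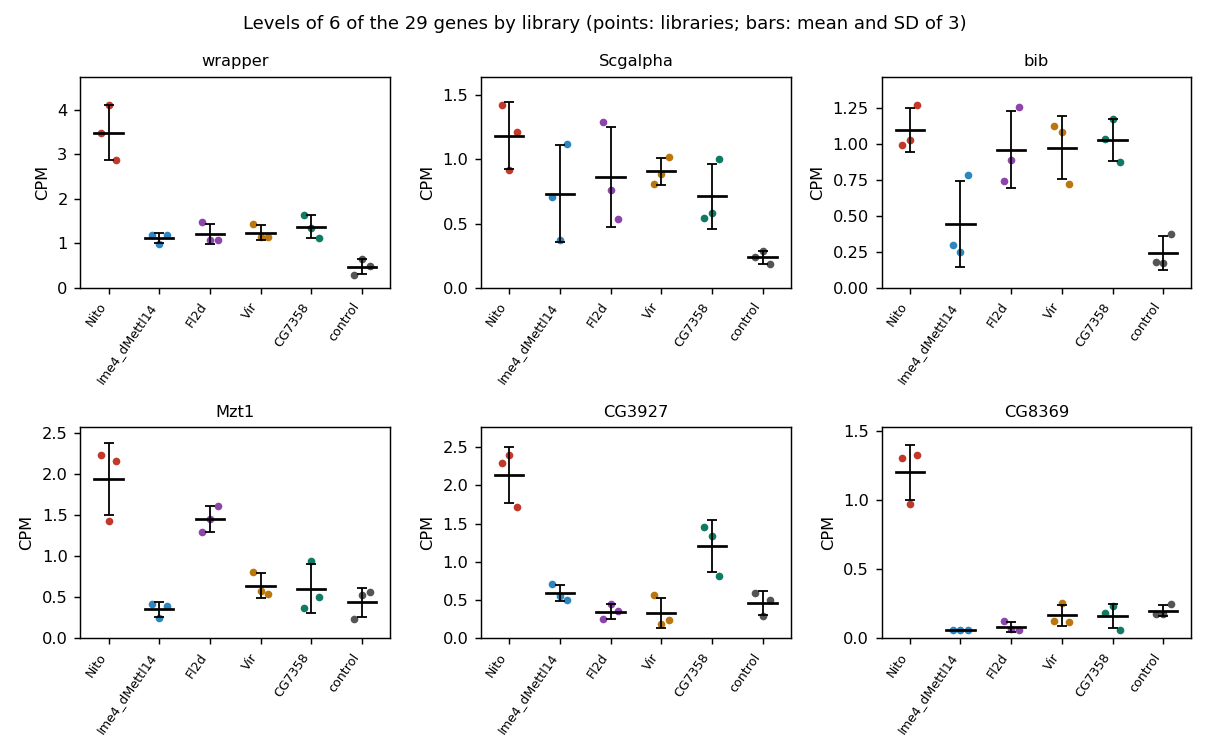
CPM in each library (points), with the mean and SD of 3 libraries per group, for wrapper, Scgalpha, bib, Mzt1, CG3927 and CG8369. For wrapper and CG8369 the Nito libraries are separate from all others, Mzt1 is also high in Fl2d (1.45 CPM) and CG3927 in CG7358 (1.21 CPM), and bib is near its Nito level in Fl2d, Vir and CG7358.

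The comparisons of the other knockdowns with the control share the control libraries, in which the 29 genes were chosen to be low, so a rise against them is not independent of the choice. In edgeR's quasi-likelihood test, 2 members passed in Ime4_dMettl14, 9 in Fl2d, 7 in Vir and 8 in CG7358, all of them higher than the control. The background of genes higher than the control was 3.01% in Ime4_dMettl14, 16% in Fl2d, 16.7% in Vir and 18.8% in CG7358 of all genes tested, and 0.216%, 7.45%, 6.26% and 8.53% of the 926 of like low level. By sign alone, 22, 26, 24 and 25 of the 29 were above the control mean in Ime4_dMettl14, Fl2d, Vir and CG7358, against 41.3%, 57%, 51% and 51.6% of the 1212 genes in the members' control range. In all, 15 members passed as higher in at least 1 of the 4 and 14 in none, where the background in at least 1 was 26.9% of all genes tested and 15.4% of the 926. Of the 15, CR43972, twy and Vha36-3 were tested only because of their Nito libraries.

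The genes that passed in all 4 were wrapper and Scgalpha. wrapper had 20, 16 and 21 reads in Ime4_dMettl14, 24, 17 and 18 in Fl2d, 23, 18 and 19 in Vir and 27, 23 and 18 in CG7358, against 5, 11 and 8 in the control. Its log2 fold changes were 1.21 ± 0.33 in Ime4_dMettl14 (edgeR adjusted p = 0.0241), 1.37 ± 0.33 in Fl2d, 1.41 ± 0.32 in Vir and 1.57 ± 0.31 in CG7358 (SE). No library of the 4 knockdowns fell in the control range for wrapper, and its Nito mean was still higher, at 3.48 CPM. Scgalpha had 12, 6 and 20 reads in Ime4_dMettl14, 21, 12 and 9 in Fl2d, 13, 14 and 17 in Vir and 9, 10 and 16 in CG7358, against 4, 5 and 3 in the control. Its log2 fold changes were 1.61 ± 0.48, 1.86 ± 0.47, 1.94 ± 0.46 and 1.59 ± 0.49 in these knockdowns (SE). Both calls in Ime4_dMettl14 were fragile: none remained without control replicate 1, control replicate 3, Ime4_dMettl14 replicate 1 or Ime4_dMettl14 replicate 3 (3 to 5 members then had an unadjusted edgeR p under 0.05), and 1 without control replicate 2. Scgalpha in CG7358 was lost without CG7358 replicate 3 (edgeR adjusted p = 0.0772).

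The genes that passed in 3 knockdowns were bib and Ir68a, each in Fl2d, Vir and CG7358. bib had 12, 14 and 21 reads in Fl2d, 18, 17 and 12 in Vir and 17, 20 and 14 in CG7358, against 3, 3 and 6 in the control. Its log2 fold changes were 2.02 ± 0.44, 2.04 ± 0.44 and 2.13 ± 0.43 (SE), and in Ime4_dMettl14 it was 0.89 ± 0.52 (edgeR adjusted p = 0.369). Ir68a had log2 fold changes of 1.16 ± 0.38, 1.21 ± 0.38 and 1.34 ± 0.37 (SE). The value for Ir68a was lost in Fl2d without control replicate 1, Fl2d replicate 1 or Fl2d replicate 2, and in Vir without control replicate 1 or Vir replicate 2. With DESeq2 it was lost in both (DESeq2 adjusted p = 0.0706 in Fl2d and 0.0526 in Vir). With no filter it was lost in Fl2d (edgeR adjusted p = 0.0543). twy, which was admitted to the test through its Nito libraries, passed in Fl2d (1.64 ± 0.49 SE) and in CG7358 (1.31 ± 0.52 SE). The first was lost without Fl2d replicate 1 and the second without any of 14 libraries.

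Of the 10 genes that passed in 1 knockdown, Mzt1 (1.76 ± 0.34 SE) and CR43972 (2.27 ± 0.62 SE) passed in Fl2d, each without exception when single libraries were left out. CR43972 was admitted to the test through its Nito libraries, and was not tested when only Fl2d and control were fitted. The value of CR43972 was 3.80 without control replicate 3, which holds 4 of its 5 control reads. CG14839 and frm also passed in Fl2d, lost without any of 5 and 12 libraries, and the number that passed there was 5 without Fl2d replicate 1. In Vir they were fan (1.29 ± 0.37 SE, edgeR adjusted p = 0.00654), CG11598 and Vha36-3. CG11598 had 0.72 in place of 1.22 without control replicate 2, and Vha36-3 had an edgeR adjusted p of 0.0571 without Vir replicate 1. Vha36-3 too was admitted to the test through its Nito libraries. In CG7358 they were CG3927 (1.45 ± 0.35 SE), CG44006 (1.59 ± 0.39 SE) and FBgn0085364 (1.21 ± 0.38 SE), which passed whichever library was left out. CG44006 had 21, 20 and 14 reads in CG7358, against 3, 10 and 6 reads in the control.

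The mean of CG8369 was below the control mean in each of the other 4 knockdowns. It had 1 read in each Ime4_dMettl14 library and 2, 1 and 1 reads in Fl2d, against 3, 3 and 4 reads in the control. These 6 libraries were all below the control libraries, and the Nito libraries with 21, 17 and 24 reads were all above them, which the rule makes likely. How many of all genes tested had such an order was not counted, so nothing is read from it. CG8369 was admitted to the test through its Nito libraries. The log2 fold changes against the control were -1.64 ± 0.74 in Ime4_dMettl14 (SE, edgeR adjusted p = 0.252) and -1.16 ± 0.71 in Fl2d (SE, edgeR adjusted p = 0.242), which did not pass the test. Vir with 2, 4 and 2 reads (-0.21 ± 0.60 SE, edgeR adjusted p = 0.833) and CG7358 with 3, 4 and 1 reads (-0.23 ± 0.60 SE, edgeR adjusted p = 0.814) overlapped the control. CG44004, which lies 2212 bases from CG44006 on the same strand, had 4, 3 and 5 reads in CG7358, against 6, 8 and 6 reads in the control, while CG44006 was high in CG7358.

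The same rule applied to the other knockdowns found 0 genes in Ime4_dMettl14, 1 in Fl2d (Mzt1), 0 in Vir and 1 in CG7358 (bib), both members. Turned round, with under 0.5 CPM in the knockdown and at least 1 CPM and 3 times as much in the control, it found 14 genes in Nito, 0 in Ime4_dMettl14, 2 in Fl2d, 1 in Vir and 4 in CG7358. These comparisons share the control libraries.

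Of the 28 genes with a position, 13 lie on chromosome arm 3L, 5 on 2L, 5 on 3R, 3 on X and 2 on 2R. The share on 3L was 46.4%, against 19.6% of all genes in the files and 20.7% of the genes in the members' control range. This is a description with no test, as the members were chosen by level.

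Of the 29 genes, 12 overlap another gene, and 7 of them share exon sequence with a gene on the opposite strand: Mzt1, CG11617, NimC3, CG14839, nanos, CG13877 and bib. The strand setting of the counting is not given in the sources used here, so reads of the opposite gene may have been counted in these 7. CG14839 shares exon sequence with trx, a regulator of homeotic genes, which was 206 ± 5.06 CPM in Nito and 133 ± 12.9 CPM in the control (SD, n = 3 each; 0.64 ± 0.05 log2, SE). The stretch shared with trx runs only from 14263358 to 14263367. CG11617 shares exon sequence with Tbc1d15-17, which was 124 CPM in Nito and 99.6 CPM in the control (0.33 ± 0.04 log2, SE). It also shares exon sequence with mRpL10, which was 58.6 CPM in Nito and 64.0 CPM in the control. nanos shares exon sequence with CG11779, which was lower in Nito, at 51.9 CPM, against 62.9 CPM in the control. It also shares exon sequence with Nsun5, which was 28.7 CPM in Nito and 28.5 CPM in the control. CG13877 shares exon sequence with pyx, which was 1.52 CPM in Nito and 0.701 CPM in the control (1.14 ± 0.29 log2, SE). The opposite-strand genes that share exon sequence with Mzt1, NimC3 and bib had means of at most 0.0197 CPM in Nito and the control. Mzt1 lies in an intron of Svil on the same strand, which was 592 CPM in Nito and 712 CPM in the control. The part of these overlaps in the levels was not tested.

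Neighbours of the members were not chosen by the rule, but only genes that passed the filter on low counts were taken. That filter includes the Nito libraries, and how many neighbours passed only through them was not counted. The shares below are therefore a description. Of 54 nearest tested neighbours with members left out, 22 were higher in Nito in edgeR's test (40.7%), 12 were lower (22.2%) and 20 did not pass, against 29.8% higher and 30.9% lower of all genes tested. Within 5000 bases there were 38, of which 18 were higher and 8 lower. CG13506, 459 bases from wrapper on the same strand, was 3.64 ± 0.127 CPM in Nito and 1.47 ± 0.316 CPM in the control (SD, n = 3 each; 1.31 ± 0.20 log2, SE). CG31875, 23 bases from bib on the opposite strand, rose by 1.19 ± 0.20 on the log2 scale (SE). The examples were chosen after their values were seen.

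Of 245 genes in 14 lists of cell type and tissue markers, 188 were under 0.5 CPM in the control with the same genes left out, and 2 of these 188 were members: wrapper of the glia list and nanos of the ovary list. That is 1.06%, against 0.36% of all 8061 genes under 0.5 CPM. The share rests on 2 genes, and the lists were chosen with earlier results of these data known, so nothing is read from the difference. In edgeR's test of Nito against control (29.8% of all genes tested were higher), the neuron list had 15 tested genes with 7 higher and 1 lower, and its summed level was 391 to 458 CPM in Nito, against 374 to 404 CPM in the control. The neuron list holds brp and Gad1, which the rule left out by name, and its values were not repeated without them. The glia list had 6 tested, 2 higher and 1 lower, or 5 tested, 1 higher and 1 lower without wrapper, whose direction the rule fixed, at 662 to 681 CPM in Nito, against 615 to 629 CPM in the control. The summed level of the glia markers, wrapper included, did not overlap between the groups, and that of the neuron markers did. The median log2 fold change over the tested genes was -0.047 for the glia list, wrapper included, and 0.492 for the neuron list. The sums and the medians thus did not rank these lists alike, and no rise of either list is read from the sums. Testis markers had 9 tested, 5 higher and 1 lower, at 82.5 to 83.8 CPM in Nito, against 73.4 to 81.9 CPM in the control, and 12 of its 27 genes were at 0 in all 18 libraries. Ovary and eggshell genes had 4 tested, 2 higher and 2 lower, or 3 tested, 1 higher and 2 lower without nanos, at 42.7 to 45.6 CPM in Nito, against 50.9 to 58.9 CPM in the control. Muscle genes had 5 tested, 1 higher and 2 lower, at 365 to 384 CPM in Nito, against 361 to 395 CPM in the control. The muscle sums overlapped between the groups and the ovary sums were lower in Nito. Plasmatocyte genes, the blood cell type that S2R+ resembles, had 10 of 11 tested, with 2 higher and 4 lower, at 1287 to 1292 CPM in Nito, against 1433 to 1496 CPM in the control.

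The cuticle list had 1 tested and higher (2.85 to 3.70 CPM in Nito, against 1.30 to 2.26 CPM in the control), and the embryonic patterning list 2 tested and 1 higher (2.42 to 3.81 CPM in Nito, against 1.77 to 2.43 CPM in the control). Of 5 tested genes induced in immunity, 3 were higher, at 23.3 to 27.0 CPM in Nito, against 15.5 to 17.8 CPM in the control. Photoreceptor genes had 3 tested with 1 higher and 1 lower (103 to 108 CPM in Nito, against 146 to 157 CPM in the control), fat body genes 3 with 1 lower (219 to 228 CPM in Nito, against 263 to 287 CPM in the control), and crystal cell and lamellocyte genes 4 with 1 higher and 2 lower (92.2 to 102.7 CPM in Nito, against 94.4 to 99.9 CPM in the control). No accessory gland or gut gene passed the filter, with sums of 0.442 to 0.628 and 0.682 to 0.799 CPM in Nito, against 0.177 to 0.521 and 0.464 to 0.810 CPM in the control. The part of other cell types in the levels of the 29 genes was not tested.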

How the data were processed

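Per the labels' protocols, the kit kept the strand and took polyadenylated RNA. The values deposited by the authors are raw counts of reads for each FlyBase gene. STAR 2.5.1b, featureCounts 1.5.1 and BDGP6 (the build) are named in the submitters' processing notes, without the options for strand, reads with several matches or shared exons. Names were found for 17253 of 17559 IDs, and positions are those of an Ensembl gene annotation of BDGP6.

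CPM were computed from the deposited counts and library totals. Members were chosen by mean CPM, and the members and lists were chosen with earlier results of these data known. The test was edgeR 4.0.16 in R 4.3.3 (filterByExpr, 8146 genes, TMM scaling, robust quasi-likelihood fit of all 18 libraries, Benjamini-Hochberg adjustment over all genes tested within a contrast, threshold 0.05), which uses limma 3.58.1. The fit was tested on simulated data. DESeq2 1.42.0, other scalings, filters and sample sets and single libraries left out were alternatives. Total counts were 15743484 to 18100792, the common biological coefficient of variation was 0.0432, and replicates differed by more than sampling noise (chi-square per degree of freedom 2.33 to 15.7). Intervals are exact Poisson intervals and cover counting error only. Genes of like low level are the 926 tested genes whose average log2 CPM was at or under that of the highest member.

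The rule for named genes took the 12 members with the highest Nito mean, those at 0 in at least 2 control libraries (there were none), those called among the 4 other knockdowns, up to 8 nearest to their Nito mean in another knockdown, the 3 genes on each side of each threshold, and members in a list. Members and neighbours named beyond it were chosen for their position, or after their values were seen. Of the list entries, 8 were not matched to an ID and are not analysed here.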

Additional observations from a re-analysis of the deposited data

Results flagged for a closer look

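Results for 5 members differed between knockdowns. Mzt1 differed among Ime4_dMettl14, Fl2d, Vir and CG7358 (edgeR adjusted p = 0.000147), and the mean of the last 3 was higher than Ime4_dMettl14 by 1.26 on the log2 scale. CG3927 differed among the 4 (edgeR adjusted p = 0.000286). bib differed among the 4 (edgeR adjusted p = 0.0226) and was 1.17 higher in the mean of Fl2d, Vir and CG7358 than in Ime4_dMettl14. In the same comparison CG14839 was 0.84 and Cpr64Ac 0.93 higher on the log2 scale. Both were fragile: CG14839 was lost without any of 14 of the 18 libraries and Cpr64Ac without any of 13, and neither passed with DESeq2.

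In CG8369 every Nito library was above every control library, and every Ime4_dMettl14 library (mean 0.0588 CPM) and every Fl2d library (mean 0.0820 CPM) was under every control library (mean 0.200 CPM). In CG44004 every Nito library was above every control library and every CG7358 library (mean 0.244 CPM) was under every control library (mean 0.397 CPM). None of these lower levels passed edgeR's test against the control, and CG8369 was admitted to that test through its Nito libraries. The higher Nito levels chose the genes. How many of all genes tested had such an order of libraries was not counted, so nothing is read from it.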

How the results depend on the processing

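The set held 29 genes with TMM or DESeq2 scaling of the CPM, the same 29. It held 7 with a control mean under 0.25 CPM, 2 with a Nito mean of at least 2 CPM and 6 with a ratio of at least 5. With 1 Nito or control library left out it held 25 to 34. Members that passed among the 4 other knockdowns numbered 3, 2 with DESeq2 and 2 to 4 with 1 library left out. Those that passed in Fl2d, Vir and CG7358 against Ime4_dMettl14 numbered 4. There were 2 with DESeq2, 2 with no filter, 2 with only the compared groups in the fit, and 1 to 4 with 1 library left out. Against the control, Ime4_dMettl14 had 2, with DESeq2 0 (3 members at an unadjusted p under 0.05), with only the compared groups 1 of 2 tested, and 0 to 2 with 1 library left out. Fl2d had 9, with DESeq2 6, with no filter 7, with only the compared groups 3 of 5 tested, and 5 to 9 with 1 library left out. Vir had 7, with DESeq2 5, and 5 to 8 with 1 library left out. CG7358 had 8, and 6 to 9 with 1 library left out. Fitting only the compared groups leaves fewer members past the filter; the cause of the other changes was not tested. No member was left with a filter at 5 CPM. Of 746 alternatives for single genes, 646 stayed on the same side of the threshold, 100 missed it and 0 changed direction.

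Replicate numbers are shared between groups, but libraries of the same number did not deviate together (correlations -0.0865 to 0.170, 5 of 45 over 0.1), so the numbers were not taken to pair the libraries. With the replicate block, the counts were 3 among the 4 knockdowns, 4 against Ime4_dMettl14, and 2, 8, 6 and 8 in Ime4_dMettl14, Fl2d, Vir and CG7358 against the control. With 0 to 11 control reads per gene and library, changes of a few reads were not detectable at this depth.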
